A study of Mus musculus with 6 samples.

Results

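The SLC25 family is the largest family of solute carriers of mitochondria, and its members move metabolites, nucleotides and cofactors across the inner mitochondrial membrane. Members were taken as every symbol in the authors' deposited table that consists of Slc25a and a number. This gave 38 of 16472 genes, of which 37 had an adjusted p. Another 9 RefSeq symbols of this form (Slc25a2, Slc25a18, Slc25a21, Slc25a31, Slc25a34, Slc25a41, Slc25a43, Slc25a48 and Slc25a54) had no value in the authors' deposited table. The compared libraries came from HT22, an immortalised mouse hippocampal cell line, with 3 cultures given AA147 (10 mM as the labels state it) and 3 given the vehicle DMSO, all for 16 h. The compound AA147 is used to activate the stress regulators ATF6 and NRF2. Nothing in the labels says that the 3 libraries of a group came from separate experiments, so p-values may reflect technical spread only.

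SLC25 carriers share a fold of 3 similar repeats, and most of them exchange one solute for another. The ADP/ATP and phosphate carriers feed the ATP synthase, the aspartate/glutamate and oxoglutarate carriers form the malate-aspartate shuttle that brings reducing equivalents into mitochondria, and further members supply glutathione, iron, coenzyme A, NAD and nucleotides. In neurons the malate-aspartate shuttle and the ADP/ATP carriers are known for their part in respiration. A few members sit elsewhere, such as Slc25a17 in the peroxisome and Slc25a46 in the outer membrane.

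The table holds 1 line per gene with a mean over the 6 libraries, a log2 fold change and its standard error (SE), and no value per library, so neither single samples nor the overlap of the groups can be shown. Its header does not name the numerator of the fold change. Positive values are read here as higher with AA147, and each direction below is conditional on that reading. Under it, the NRF2 target Nqo1 was positive at 0.93 (SE 0.067) and the ATF6 target Hspa5, the chaperone BiP, negative at -0.80 (SE 0.061) in the authors' deposited table. Of 6 stress genes listed for the sign, 4 were called positive (Nqo1, Gclm, Srxn1 and Txnrd1) and 2 negative (Hspa5 and Herpud1, at -0.84). If both regulators were active, the 2 sides would point to opposite readings, so these genes do not settle the numerator. Of 14 neuron markers, 2 had a value in the authors' deposited table, Tubb3 (mean 1199), called positive at 0.43, and Camk2a (mean 10.6), not called at -0.44. Of 6 fibroblast markers, 5 had a value in the authors' deposited table. All 5 of these fibroblast markers were called negative, from -1.52 for Col1a1 to -0.81 for Dcn, with means from 181 to 254004 in the authors' deposited table. Of 5 astrocyte, 4 microglia and 5 oligodendrocyte markers, 2, 1 and 2 had a value in the authors' deposited table. Of these, 2, 1 and 1 had an adjusted p, and Slc1a3 at -1.30 and Tmem119 at -0.49 were the called ones. The part of these markers in the results below was not tested. In bulk RNA, fewer cells of a kind and less RNA per cell cannot be told apart.

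At an adjusted p under 0.05, 2 of the 37 carriers were called positive (Slc25a40 and Slc25a10) and 3 negative (Slc25a12, Slc25a4 and Slc25a17) in the authors' deposited table. That is 13.5% of the carriers, beside 20.2% of all 13597 genes with an adjusted p. By direction, 5.41% of the carriers were called positive beside 9.05% of all genes, and 8.11% negative beside 11.1%. At this threshold, the share of carriers called was thus not above the background in either direction. The 5 called carriers had absolute log2 fold changes from 0.18 to 0.55, and the median absolute value of all called genes was 0.35 in the authors' deposited table. Over all 37 carriers the median log2 fold change was -0.03, against 0.01 over all genes with an adjusted p, with 17 carriers positive and 20 negative in the authors' deposited table.

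The plot of fold changes by substrate group shows how narrowly most carriers lay around no change. Their median absolute log2 fold change was 0.14, against a similar 0.16 over all genes with an adjusted p. Of the 32 carriers that were not called, 23 had a 95% interval, taken as 1.96 SE on either side, that lay wholly within 0.5 of no change on the log2 scale in the authors' deposited table. For the other 9 a change of that size was not excluded by the interval. A call needed a fold change of about 2.58 times the SE. The median of that limit was 0.17 for the 11 carriers with a mean from 1000 to 10000, of which 3 were called beside 27.3% of all such genes. It was 0.33 for the 19 carriers with a mean from 100 to 1000, of which 1 was called beside 18.1%. Of the 3 carriers with a mean of 10000 or more, 1 was called, beside 41.7% of genes at that level. Of the 4 tested carriers with a mean under 100, DESeq2 called 0, beside 7.12% of such genes, and 0 had an unadjusted p under 0.05. In the whole family, 11 carriers, 29.7%, had an unadjusted p under 0.05, beside 30.6% of all genes with an adjusted p.

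**Figure D1:**
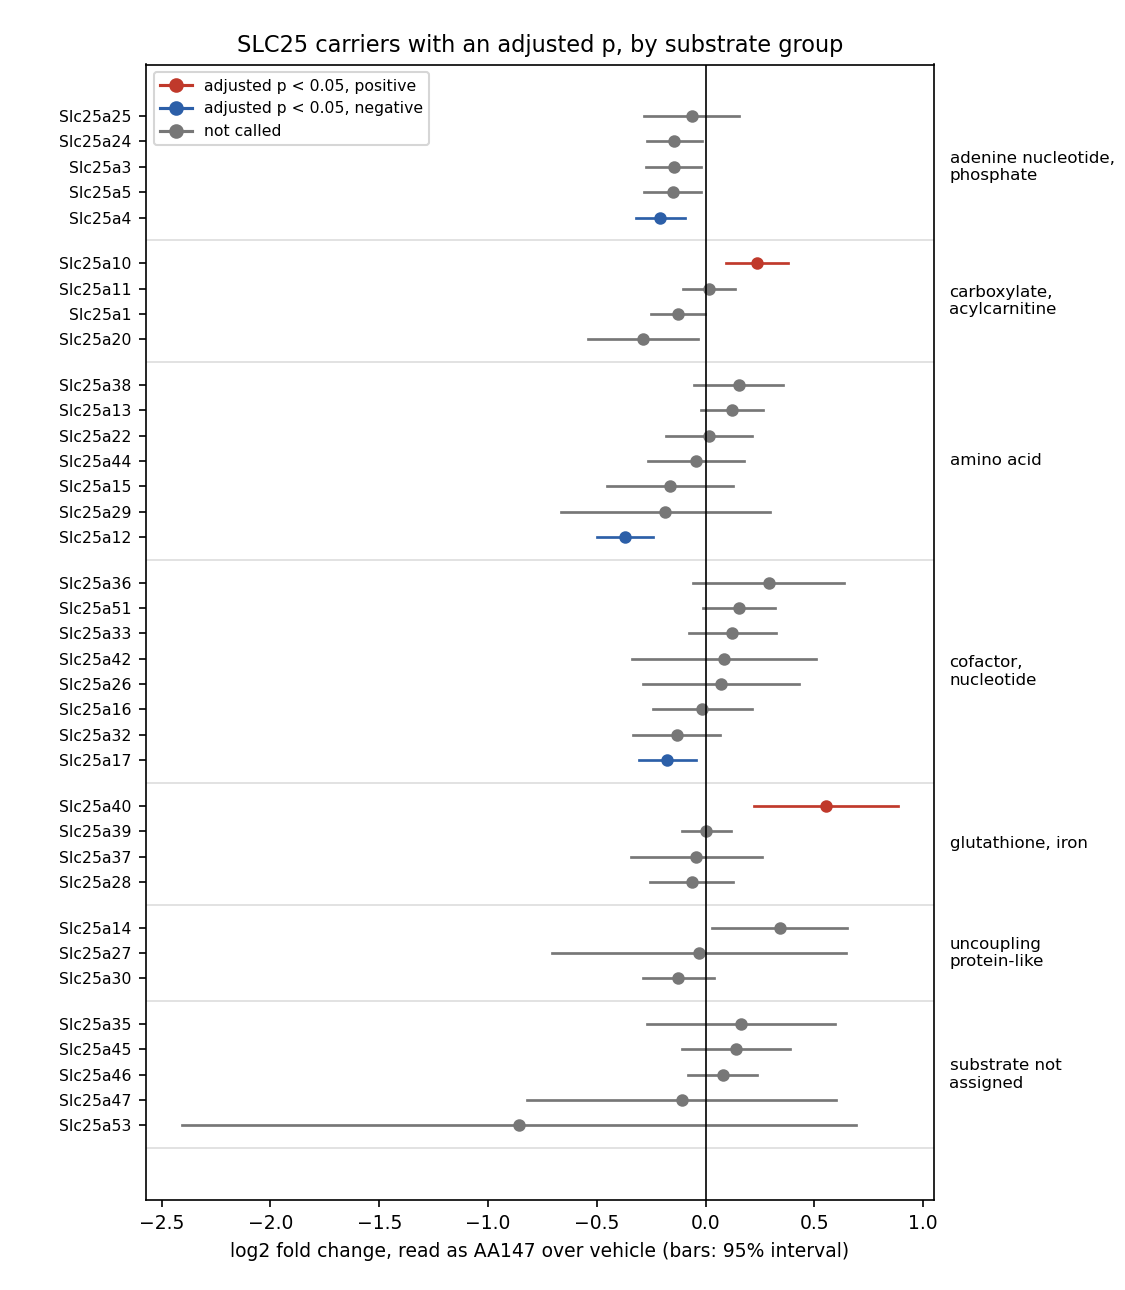
Log2 fold change of 36 of the 37 carriers with an adjusted p, read as AA147 over vehicle, grouped by substrate; points are the authors' values and bars the 95% interval from their SE. The 5 called carriers are coloured, and Slc25a53, with a mean of 10.7, has the widest interval.

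The glutathione carriers gave the largest called difference of the family and a contrast within a pair. Slc25a40 and Slc25a39 import glutathione, the main thiol antioxidant, into the mitochondrial matrix. The rarer of the pair, Slc25a40, had a mean of 204 normalized counts and a log2 fold change of 0.55 (adjusted p 0.00802, SE 0.17), which is 46.8% higher with a 95% interval from 16.7% to 84.5% in the authors' deposited table. Taken at face value with equal groups, this corresponds to an average of 243 with AA147 and 166 with vehicle. Slc25a39 had a mean of 12771 and a log2 fold change of 0.00 (adjusted p 0.984, SE 0.058) in the authors' deposited table, with an interval from -7.38% to 8.38%. The abundant glutathione carrier was therefore measured with an interval under 10% on either side, while the rare one was higher.

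Per kilobase of transcript, the mean of Slc25a39 was 60.0 times that of Slc25a40. The difference between their log2 fold changes, Slc25a40 minus Slc25a39, was 0.55 with a 95% interval from 0.20 to 0.90 if their errors are independent. The coding sequence of Slc25a40 has 1 processed pseudogene, Gm5066, that is 96.3% identical over 71.6% of its length, so its count is uncertain to the extent that reads from the copy were assigned to it. Among enzymes of the same substrate, both subunits of glutamate-cysteine ligase, which starts glutathione synthesis, were called positive in the authors' deposited table. These were Gclm at 0.63 (adjusted p 9.49e-13) and Gclc at 0.32 (adjusted p 9.3e-05). Of the other glutathione enzymes listed, glutathione synthetase Gss at 0.10 (adjusted p 0.493) and glutathione reductase Gsr at 0.15 (adjusted p 0.0998) were not called in the authors' deposited table.

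The promoters of the 2 pairs of related carriers whose members differ in call with an interval of the difference that excludes no change are shown, so that the windows of a called and an uncalled member can be read side by side. Each runs from 250 bases before to 50 bases after a transcription start, from RefSeq for mouse assembly GRCm38.p6, which is not the build of the counts. Capitals mark each match, on either strand, to TGACNNNGC, the core of the antioxidant response element bound by NRF2, to GGGCGG, the GC box, or to CCAAT. The windows lie at chr5:8422588-8422887 on the plus strand for Slc25a40, and on the minus strand at chr11:102407468-102407767 for Slc25a39, chr2:71367706-71368005 for Slc25a12 and chr6:6217124-6217423 for Slc25a13.
Slc25a40: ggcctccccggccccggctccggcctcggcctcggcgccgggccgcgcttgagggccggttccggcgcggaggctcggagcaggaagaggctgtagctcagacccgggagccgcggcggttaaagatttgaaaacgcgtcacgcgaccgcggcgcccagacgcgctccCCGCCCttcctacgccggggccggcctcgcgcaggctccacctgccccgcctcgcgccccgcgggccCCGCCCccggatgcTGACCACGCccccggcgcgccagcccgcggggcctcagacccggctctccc
Slc25a39: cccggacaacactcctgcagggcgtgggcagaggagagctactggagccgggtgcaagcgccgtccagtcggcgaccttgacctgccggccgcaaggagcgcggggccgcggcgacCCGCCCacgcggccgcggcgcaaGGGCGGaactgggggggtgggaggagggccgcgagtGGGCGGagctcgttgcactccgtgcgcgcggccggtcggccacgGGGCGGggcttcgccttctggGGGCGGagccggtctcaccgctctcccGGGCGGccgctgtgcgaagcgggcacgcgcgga
Slc25a12: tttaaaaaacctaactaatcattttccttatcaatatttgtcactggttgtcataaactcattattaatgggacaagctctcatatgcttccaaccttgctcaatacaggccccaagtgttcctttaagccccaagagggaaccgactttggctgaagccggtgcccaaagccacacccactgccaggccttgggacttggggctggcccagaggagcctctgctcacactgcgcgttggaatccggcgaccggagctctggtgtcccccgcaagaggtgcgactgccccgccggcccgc
Slc25a13: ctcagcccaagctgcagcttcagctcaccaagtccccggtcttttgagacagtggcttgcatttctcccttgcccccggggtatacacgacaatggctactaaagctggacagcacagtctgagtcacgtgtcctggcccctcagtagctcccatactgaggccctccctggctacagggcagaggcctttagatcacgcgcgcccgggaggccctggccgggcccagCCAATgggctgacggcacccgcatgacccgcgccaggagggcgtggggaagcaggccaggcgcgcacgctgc

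The glutathione pair has GC-rich windows, with 79.0% G and C for Slc25a40 and 77.3% for Slc25a39, and 2 and 6 GC boxes. The window of Slc25a40 holds 1 match to TGACNNNGC that begins 1 base before the start, and that of Slc25a39 holds 0. The windows of Slc25a12 and Slc25a13 have 54.3% and 65.0% G and C and 0 GC boxes, and 1 CCAAT box lies in that of Slc25a13. Promoter windows were given for 29 carriers, some with more than 1 start, and a gene was counted once if any of its windows held a motif. The match to TGACNNNGC occurred for 9 of them, beside 14% of all 27025 genes with a window, and Slc25a40 was the 1 called carrier among the 9. The uncalled Slc25a3, Slc25a5, Slc25a14, Slc25a23, Slc25a25, Slc25a33, Slc25a38 and Slc25a53 were the others.

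GGGCGG occurred for 26 of the 29 carriers, beside 38.2% of all genes, and CCAAT for 17, beside 41.1%. The median window of the carriers held 61% G and C, and that of all genes 52.7%. The 27025 genes with a window outnumber the 13597 with an adjusted p, so this background is not limited to tested genes. The other motifs searched on both strands were rare. TGACGTCA, the cyclic AMP response element, occurred for 2 carriers, beside 2.03% of all genes, and AANATGGCG, the YY1 site, for 1, beside 2.76%. The ATF6 element, searched as CCAAT and CCACG with 9 bases between them, the ATF4 composite TGATGNAA, the nuclear respiratory factor 1 core CGCATGCG and the estrogen-related receptor element TNAAGGTCA occurred for 0 carriers, beside 0.137%, 4.51%, 2.07% and 1.43% of all genes. CCAAT is also the beginning of the ATF6 element, and TGACGTCA can overlap TGACNNNGC. Such matches describe the letters of these windows only.

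Slc25a40 also shares its upstream region with a divergent neighbour. Dbf4, which activates the kinase that starts DNA replication, begins 122 bases upstream on the opposite strand. It had a mean of 4852 and was called positive at 0.19 (adjusted p 0.0217, SE 0.065) in the authors' deposited table. Another 5 carriers had a divergent neighbour within 1000 bases, and of these neighbours Rnf167, beside Slc25a11, was the 1 with an adjusted p. Its fold change was 0.03 (adjusted p 0.844, SE 0.072), and that of Slc25a11 was 0.02 (adjusted p 0.911, SE 0.062) in the authors' deposited table.

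The mitoferrins, which bring iron into the matrix for heme and iron-sulfur clusters, complete this group and were not called. Slc25a28 had a log2 fold change of -0.06 (SE 0.097) and Slc25a37 one of -0.04 (SE 0.15) in the authors' deposited table, at means of 983 and 337. The first enzyme of heme synthesis, Alas1, was called positive at 0.77 (adjusted p 8.07e-17, SE 0.087) in the authors' deposited table. Abcb6, a porphyrin transporter, was called positive at 0.76 (adjusted p 2.61e-17, SE 0.084), while ferrochelatase, Fech, was not called at -0.10 (adjusted p 0.334, SE 0.065) in the authors' deposited table.

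Among the amino acid carriers, the brain and muscle form of the aspartate/glutamate carrier fell. This form, Slc25a12, known as aralar, had a mean of 4420 and a log2 fold change of -0.37 (adjusted p 4.93e-07, SE 0.066) in the authors' deposited table. This is the smallest adjusted p of the family and a level of 0.77 times that of vehicle, or 3855 against 4985 at face value. Its paralog Slc25a13, known as citrin and as the liver form, had a mean of 1848 and a positive fold change of 0.12 (adjusted p 0.247, SE 0.072) that was not called in the authors' deposited table. The difference between their log2 fold changes, Slc25a12 minus Slc25a13, was -0.49 with a 95% interval from -0.68 to -0.30. Their coding sequences are 72.3% identical, and neither has a near copy among annotated transcripts. Per kilobase of transcript, the mean of Slc25a12 was 1.58 times that of Slc25a13.

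The other parts of the malate-aspartate shuttle, named after their values were seen, lay close to no change. Slc25a11, the oxoglutarate/malate carrier, had the interval from -7.08% to 9.93% around its fold change of 0.02 in the authors' deposited table. The aspartate transaminases Got1 and Got2 had fold changes of -0.02 and 0.10, and the malate dehydrogenases Mdh1 and Mdh2 -0.04 and 0.00, with SEs from 0.057 to 0.069 in the authors' deposited table. These 4 were not called, with adjusted p-values from 0.273 to 0.991. Of the shuttle genes listed, Slc25a12 was thus the 1 called.

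The remaining 5 amino acid carriers were not called in the authors' deposited table. Slc25a22, which imports glutamate, had a log2 fold change of 0.01 (SE 0.101) at a mean of 765 in the authors' deposited table. Slc25a15, the ornithine carrier, lay at -0.16 (SE 0.15), Slc25a29, which carries basic amino acids, at -0.19 (SE 0.25), Slc25a38, the glycine carrier used for heme synthesis, at 0.15 (SE 0.105), and Slc25a44, for branched-chain amino acids, at -0.04 (SE 0.113) in the authors' deposited table. Some enzymes that use the same substrates were called. Aldh18a1 and Pycr1, which make proline from glutamate, had fold changes of -0.75 (adjusted p 3.25e-31) and -0.42 (adjusted p 8.76e-05) in the authors' deposited table. In the authors' deposited table, Shmt2 and Mthfd2, of mitochondrial one-carbon metabolism, were called at -0.38 (adjusted p 4.87e-08) and -0.36 (adjusted p 6.35e-06).

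The adenine nucleotide and phosphate carriers include the 3 highest levels of the family per kilobase of transcript, and the 5 tested members had negative fold changes of at most 0.21 in size, of which 1 was called. Slc25a4, the ADP/ATP translocase of heart, muscle and brain, had a mean of 14225 and a log2 fold change of -0.21 (adjusted p 0.00315, SE 0.058) in the authors' deposited table. Its level fell by 13.4%, with a 95% interval from -20.0% to -6.34%, or 13201 against 15250 at face value. Slc25a5, the translocase of dividing cells, had a similar value of -0.15 (adjusted p 0.094, SE 0.067) that was not called in the authors' deposited table. The difference, Slc25a4 minus Slc25a5, was -0.06 with a 95% interval from -0.23 to 0.12, so the pair is not shown to differ. Slc25a5 has 11 annotated copies between 87.0% and 98.3% identical to its coding sequence, and its count and level are uncertain for that reason.

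Slc25a3, the phosphate carrier, was the most abundant member, with a mean of 33684 and a log2 fold change of -0.15 (adjusted p 0.0948, SE 0.065) in the authors' deposited table. Its count is uncertain to the extent that reads came from the pseudogene Gm13904, 90.1% identical over 66.9% of its coding sequence. The calcium-regulated ATP-Mg/phosphate carriers Slc25a24 and Slc25a25 lay at -0.14 (adjusted p 0.0985, SE 0.065) and -0.06 (adjusted p 0.759, SE 0.112) in the authors' deposited table. In this group, 1 of 5 tested carriers was called, beside 20.2% of all genes with an adjusted p, and all 5 fold changes were negative. They stayed negative once a trend with transcript length, GC content and mean was removed. The 2 other centrings lower every value, by 0.01 and 0.02, so they could not change these signs. The third carrier of the ATP-Mg type, Slc25a23, had a mean of 1.94 and no adjusted p, and is the 1 member without a test. Its fold change was positive at 0.47, with an SE of 1.58. Slc25a3, Slc25a5 and Slc25a24 lay just outside the threshold, with adjusted p-values between 0.05 and 0.1.

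Together, Slc25a3, Slc25a4 and Slc25a39 held 60.3% of the summed means of the 38 carriers, which in turn made up 0.327% of the sum over all genes in the authors' deposited table. The plot of levels per kilobase shows that Slc25a3, at 12026 normalized counts per kilobase of transcript, was followed by Slc25a4 at 7374, Slc25a5 at 4593 and Slc25a39 at 4387. At the lower end, Slc25a53 had 3.34 and Slc25a23 0.569 normalized counts per kilobase. These levels are averages over both groups and have no replicate error.

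**Figure D2:**
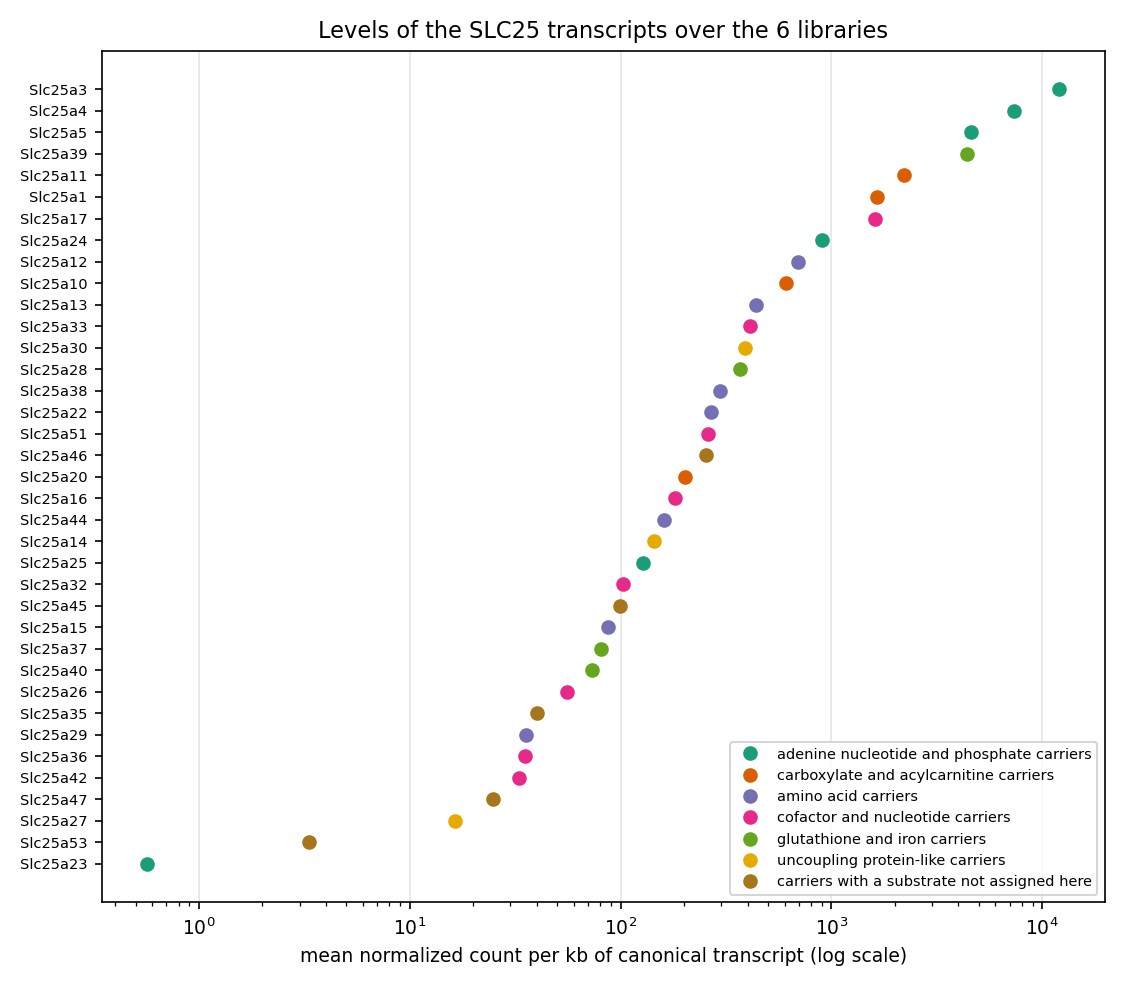
Mean normalized count over the 6 libraries per kilobase of canonical transcript, on a log scale, for 37 of the 38 carriers, coloured by substrate group. Slc25a3, Slc25a4 and Slc25a5 hold the highest levels, and Slc25a23 the lowest at 0.569.

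Of the 4 carboxylate and acylcarnitine carriers, 1 was called positive and 0 negative by DESeq2. Slc25a10, the dicarboxylate carrier that exchanges malate or succinate for phosphate, had a mean of 2436 and a log2 fold change of 0.24 (adjusted p 0.00802, SE 0.072) in the authors' deposited table. This is 17.8% higher with an interval from 6.82% to 29.9%, or 2635 against 2237 at face value. Exons of 14 carriers overlap those of another gene, and Slc25a10 is the 1 called carrier among them. An antisense RNA, Gm11788, overlaps 228 bases of its exons, and without strand information the reads of the overlap cannot be told apart. Gm11788 itself had a mean of 578 and a log2 fold change of 0.04 (adjusted p 0.909, SE 0.143) in the authors' deposited table.

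Slc25a1, which exports citrate for lipid synthesis, lay at -0.13 (adjusted p 0.147, SE 0.063) and was not called in the authors' deposited table. Slc25a20, which brings acylcarnitines in for fatty acid oxidation, had the lowest fold change of the group at -0.29 (adjusted p 0.102, SE 0.13), and was not called at its mean of 360 in the authors' deposited table. Cpt1a, which makes acylcarnitines at the outer membrane, was called negative at -0.42 (adjusted p 3.73e-07, SE 0.073) in the authors' deposited table. Cpt2, which acts inside the inner membrane, was not called at -0.06 (adjusted p 0.609, SE 0.064) in the authors' deposited table.

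Carriers of cofactors and nucleotides were the largest group, with 1 of 9 called. Slc25a17, the peroxisomal carrier of coenzyme A and related nucleotides, had a mean of 2864 and a log2 fold change of -0.18 (adjusted p 0.0418, SE 0.067) in the authors' deposited table, the called carrier nearest to the threshold. Another 6 of the 9 were positive without a call, led by the pyrimidine nucleotide carrier Slc25a36 at 0.29 (adjusted p 0.269, SE 0.18) in the authors' deposited table. Its relative Slc25a33 lay at 0.12 (SE 0.102) and the NAD carrier Slc25a51 at 0.15 (adjusted p 0.202, SE 0.084) in the authors' deposited table. In the authors' deposited table, Slc25a42, for coenzyme A, lay at 0.08 (SE 0.22) and Slc25a26, for S-adenosylmethionine, at 0.07 (SE 0.18). Slc25a32, linked to folate and FAD, lay at -0.13 (SE 0.102) and Slc25a16, linked to coenzyme A, at -0.02 (SE 0.116) in the authors' deposited table. Exons of Slc25a26 overlap 1475 bases of Lrig1, a gene on the opposite strand with a mean of 2365 in the authors' deposited table, so its value is uncertain. Slc25a36 shares 99.6% identity over 58.3% of its coding sequence with the pseudogene Gm13217, which makes its count uncertain. The same holds for Slc25a51, whose coding sequence is 93.3% identical to the pseudogene Gm17831.

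Of the 3 uncoupling protein-like carriers and the 5 tested carriers given no substrate here, 0 were called by DESeq2, and 1, Slc25a14, had an unadjusted p under 0.05. Slc25a14 had a log2 fold change of 0.34 (adjusted p 0.118, SE 0.16) and its relative Slc25a30 one of -0.13 (adjusted p 0.316, SE 0.084) in the authors' deposited table. Their difference was 0.47, with a 95% interval from 0.11 to 0.82, although neither value passed the test on its own. Slc25a27, at a mean of 47.4, lay at -0.03 (SE 0.34) in the authors' deposited table. Among the carriers without a substrate here, Slc25a46, which acts in the outer membrane on mitochondrial fission and fusion, was the most abundant, with a mean of 1122 and a log2 fold change of 0.08 (SE 0.080) in the authors' deposited table. Slc25a35, Slc25a45 and Slc25a47 lay at 0.16, 0.14 and -0.11, and Slc25a53 at -0.86 with the largest SE of the tested members, 0.79, in the authors' deposited table.

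**Figure D3:**
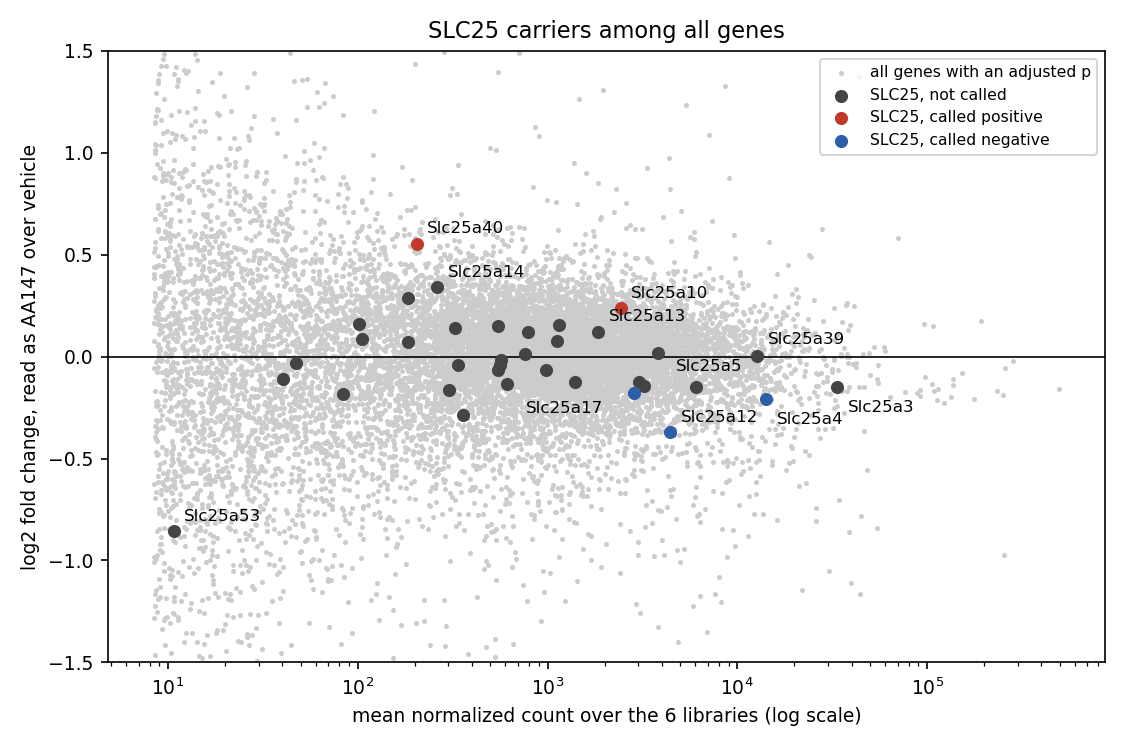
Log2 fold change, read as AA147 over vehicle, against the mean normalized count on a log scale, for genes with an adjusted p (grey) and 36 of the 37 carriers (large points); 140 genes beyond 1.5 in either direction are left out. Among the called carriers Slc25a40 is the highest at 0.55 and Slc25a12 the lowest at -0.37.

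Pairs of related carriers were compared by the difference of their fold changes, with the errors taken as independent and with no adjustment for the number of pairs. Of 13 pairs listed, 8 had a test for both members, and the 95% interval of the difference excluded no change for 3. These were Slc25a12 with Slc25a13, Slc25a39 with Slc25a40, and Slc25a14 with Slc25a30, as the plot of carrier pairs shows. For the other 5 the interval included no change, which does not show that the members act alike. The difference was -0.08 (interval -0.33 to 0.17) for Slc25a24 minus Slc25a25, and -0.02 (interval -0.38 to 0.33) for Slc25a28 minus Slc25a37. It was -0.17 (interval -0.57 to 0.23) for Slc25a33 minus Slc25a36, and -0.10 (interval -0.58 to 0.38) for Slc25a16 minus Slc25a42.

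**Figure D4:**
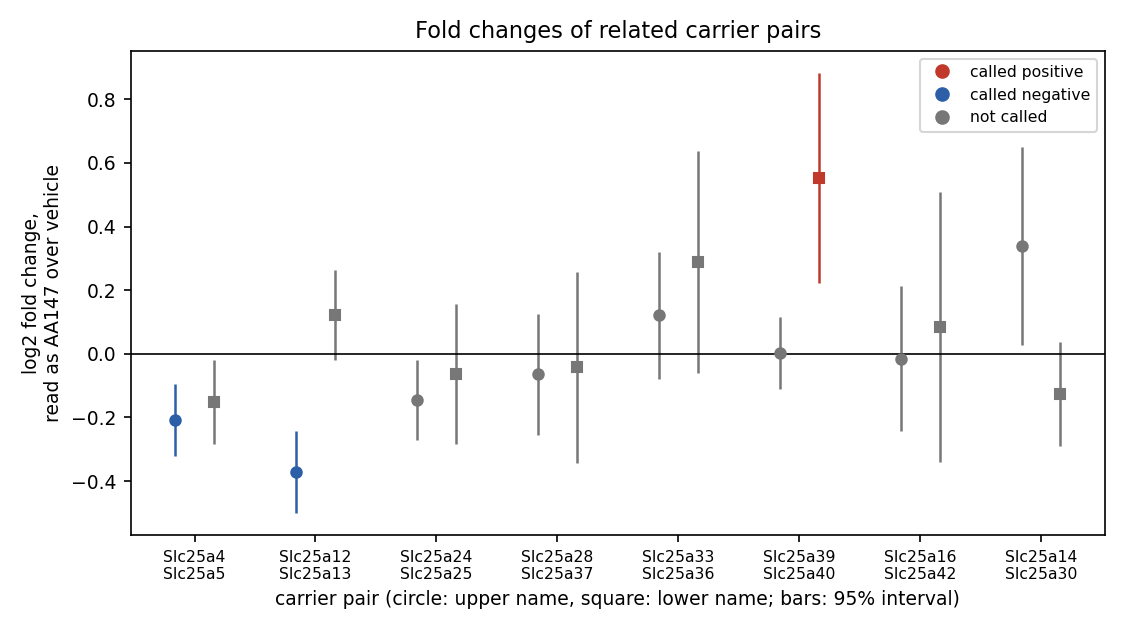
Log2 fold changes, read as AA147 over vehicle, of the 8 pairs of related carriers with a test for both members; bars are 95% intervals from the authors' SE, and colours mark calls. The bars of Slc25a12 and Slc25a13, and those of Slc25a39 and Slc25a40, do not overlap.

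Family members that carry other names and the surroundings of the carriers are given for comparison. Mtch1, an outer membrane relative of the carriers that inserts proteins, had a mean of 10222 and was called negative at -0.73 (adjusted p 2.95e-23, SE 0.070) in the authors' deposited table, a larger absolute change than that of any called Slc25a carrier. Its paralog Mtch2 lay at 0.03 (adjusted p 0.817, SE 0.066) in the authors' deposited table. Uncoupling protein 2, Ucp2, with a mean of 22.8, was not called at -0.23 (SE 0.47) in the authors' deposited table. Of 18 other listed transporters, mostly of the inner membrane, 1 was called positive, the above Abcb6, and 1 negative, in the authors' deposited table. The negative one was Smdt1, a subunit of the calcium uniporter, at -0.30 (adjusted p 0.00101, SE 0.076). In either direction 11.1% of these transporters were called, beside 20.2% of all genes with an adjusted p.

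Of the 3 outer membrane porins, Vdac2 was called positive at 0.19 (adjusted p 0.0333, SE 0.068) in the authors' deposited table. Of the 13 genes that import and insert carrier proteins, 1 was called, Timm10b, at -0.26 (adjusted p 0.0222, SE 0.089) in the authors' deposited table. Calls thus made up 33.3% of the 3 porins and 7.69% of the import genes, beside 20.2% of all genes with an adjusted p. Of 35 enzymes that make or use the carried substrates, 4 were called positive and 10 negative, with 21 not called, in the authors' deposited table. That is 11.4% positive and 28.6% negative, beside 9.05% and 11.1% of all genes, for a list chosen with earlier results known. Most of these enzymes had a mean of 1000 or more. In either direction 40% of them were called, beside 27.3% of all genes with a mean from 1000 to 10000 and 41.7% of those above. The median log2 fold change of these enzymes was -0.02, against -0.03 for the carriers.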

How the data were processed

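AA147 and vehicle cultures of HT22 cells gave 6 non-stranded mRNA libraries, 3 per group, per the labels. The authors deposited 1 comparison table, made with DESeq2 on build mm9 per the submitters' processing notes. The aligner, counter and annotation are not given in the sources used here. Per the file headers, the authors deposited a mean normalized count per gene (a signal, not whole reads), a log2 fold change with its SE, a score (the Wald statistic) and p-values, raw and adjusted. A Benjamini-Hochberg adjustment over the 13597 genes with an adjusted p gave the same values, and the other 2875 genes stayed uncalled. The depth of each library is unknown.

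Members, substrate groups, pairs and gene lists were chosen with earlier results of these data known. A single uncalled carrier is counted but not reported here by name, in the text or the plots. Every called carrier is named, as are uncalled relatives and abundant members of each group. For other lists the called genes are named, at most 8 by adjusted p, and further ones were chosen after their values were seen. The planned count test could not be run without counts per library, so calls are the authors' adjusted p under 0.05. Intervals are 1.96 SE. Transcript lengths, exon overlaps and coding sequences came from canonical transcripts of GENCODE M39 (GRCm39), and copies were sought with BLAST 2.17.0 at 85% identity over more than 50% of the coding sequence. Divergent neighbours are from RefSeq GRCm38.p6. Alternatives were other thresholds and adjustments, a mean of at least 100, centring on abundant or 12 reference genes, and subtraction of a robust trend on length, GC content and mean over 9620 genes. The call and trend code was tested on simulated data. Python 3.11.15, SciPy 1.17.1 and statsmodels 0.14.6 were used.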

Additional observations from a re-analysis of the deposited data

How the results depend on the processing

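No paired analysis was possible because the deposited data hold no values per library. For the same reason a replicate block, leaving out replicates and refits with other normalizations were not run. The count of 5 called carriers (2 positive, 3 negative) stayed between 4 and 6 at an adjusted p under 0.01, with the adjustment over all genes, at a mean of at least 100, centred on abundant genes, and with the trend subtracted. At an adjusted p under 0.1 it was 8, with 6 negative, and also when centred on the reference genes (a shift of 0.02). In both, Slc25a3, Slc25a5 and Slc25a24 joined. Of all 13597 genes, 1831 and 1711 were called negative in these settings, a smaller share than 6 of the 37 carriers. Positive calls numbered 1604 and 1011, a larger share than 2 of the 37 carriers. Bonferroni adjustment, by construction stricter, left 1 carrier, Slc25a12 (0 positive, 1 negative), and 8 of the 19 called genes of the comparison lists (relatives under other names, other transporters, porins, import genes and enzymes of the carried substrates, some of them cytosolic). A further limit of 0.5 on the absolute log2 fold change left 1, Slc25a40 (1 positive, 0 negative), and 5 of those 19. Among all 13597 genes, 1818 were called at an adjusted p under 0.01, 774 with Bonferroni adjustment and 796 with the limit of 0.5. Each is a larger share than that of the carriers. Both centrings and the trend kept the call of the 5 carriers. Their signs were bound to hold, as no shift of a carrier exceeded 0.092 and their smallest absolute fold change was 0.18. The trend moved Slc25a4 to -0.15 (adjusted p 0.0463) and Slc25a40 to 0.47 (adjusted p 0.0269). The median of the family lay between -0.05 and 0.00 throughout. Uncalled carriers whose sign changed were Slc25a11, Slc25a22 and Slc25a39 under centring and Slc25a46 under the trend.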
